A study of Homo sapiens with 6 samples.

Results

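The genes of MHC class I antigen presentation were followed in LM3 cells with and without ZNF706 knockdown. The set consists of 9 of the 33007 genes in the deposited table, namely the heavy-chain genes HLA-B, HLA-C, HLA-E, HLA-F and HLA-G, the light-chain gene B2M, the peptide transporter genes TAP1 and TAP2, and the tapasin gene TAPBP. They were taken by their symbols, each of which had a single row. The set was put together with results of this comparison already known. The values of these 9 genes, and the number of them called, are therefore a description and not a test.

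MHC class I molecules display short peptides from proteins made inside the cell to CD8+ T cells, and they also engage inhibitory receptors of natural killer cells. A molecule is built in the endoplasmic reticulum from a heavy chain and β2-microglobulin. The TAP1 and TAP2 transporter carries peptides in from the cytosol, and tapasin holds the empty molecule beside the transporter until a peptide is bound. In liver cancer, as in other tumours, the amount of class I at the surface is one of the features that determine whether T cells can see a tumour cell.

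LM3 is an established human hepatocellular carcinoma (HCC) cell line, labelled as liver with a wild-type genotype in both groups. The control group is 3 samples of LM3 cells with the vector control. The ZNF706 knockdown group is 3 samples of LM3 cells in which the zinc finger gene ZNF706 was stably reduced by a short hairpin RNA in the lentiviral vector pLKO.1, followed by puromycin selection. Neither interferon nor another immune stimulus is named for either group, and the sources used here do not say which hairpin was sequenced, whether a line was a clone or whether the samples of a group came from separate cultures, so the p-values below measure the spread between these samples, which may be technical.

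RNA was read on an Illumina NovaSeq instrument, and the reads counted on genes totalled 62684076, 64713764 and 63054445 in control samples 1 to 3 and 68548419, 65861994 and 69057423 in knockdown samples 1 to 3. Counts were scaled to CPM, a count relative to library size, with the TMM method of edgeR, which corrects the sizes for composition. Levels are compared between genes only as FPKM, the authors' value per length of gene and per size of library. The targeted gene ZNF706 had 3211, 3504 and 3357 counts in the controls and 2350, 2068 and 2298 in knockdown samples. Its log2 fold change of CPM was -0.73 (standard error 0.050), with an adjusted p of 3.7e-05 in the quasi-likelihood test of edgeR, corrected by Benjamini and Hochberg's method over 18390 genes. The knockdown was therefore partial, with ZNF706 transcripts at 53.9 ± 1.76 CPM (SD, n = 3) in control and 32.4 ± 1.39 CPM (SD, n = 3) in knockdown cells.

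The labelled cell type was checked against its markers. The epithelial keratin KRT18 led the hepatocyte list with a mean of 265.8 FPKM, whereas the plasma protein gene ALB was low, at 0.77, 3.54 and 3.57 FPKM in the controls and 2.17, 2.45 and 0.50 FPKM in knockdown samples. Only 4 of 15 hepatocyte markers had a mean above 1 FPKM. ALB and the fetal liver gene GPC3 were lowest in control sample 1 and knockdown sample 3, where GPC3 had 6 and 0 counts, against 122 and 166 in the other control samples and 127 and 101 in the other knockdown samples. Of 13 immune markers, 9 were in the table and 1 had a mean above 1 FPKM, the lysosomal gene CD68. PTPRC, which marks all leukocytes, had 8, 8 and 0 counts in the controls and 0 in each knockdown sample. In bulk RNA, fewer cells with a transcript and less of it per cell cannot be told apart.

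Class I promoters carry a few short elements that are shared between the heavy chains and B2M, and these elements are shown first because the genes that carry them are the subject here. They are the κB site of enhancer A, bound by NF-κB, the interferon-stimulated response element (ISRE), bound by IRF factors, and the SXY module, to which RFX, CREB/ATF and NF-Y proteins recruit NLRC5. Searched on both strands of the 200 bases before each start were the κB consensus, GAAA repeated after any 2 bases for the ISRE, TGACG for the core of a CREB/ATF site and CCAAT for the NF-Y box. RefSeq promoters on GRCh38.p14 were given for 8 of the 9 genes, in 11 windows. HLA-E had none. The sequences below run from 200 to 42 bases before the start, 5′ to 3′ on the gene's strand, with every match to the 4 motifs in capitals (a CCAAT box on the other strand reads ATTGG). They lie at chr6:31357221-31357379 on the minus strand for HLA-B, chr6:31272134-31272292 on the minus strand for HLA-C, chr15:44711317-44711475 on the plus strand for B2M and chr6:32838781-32838939 on the minus strand for TAP2.
HLA-B: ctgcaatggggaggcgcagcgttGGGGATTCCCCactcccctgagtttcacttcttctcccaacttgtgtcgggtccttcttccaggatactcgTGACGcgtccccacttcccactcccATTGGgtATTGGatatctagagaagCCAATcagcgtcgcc
HLA-C: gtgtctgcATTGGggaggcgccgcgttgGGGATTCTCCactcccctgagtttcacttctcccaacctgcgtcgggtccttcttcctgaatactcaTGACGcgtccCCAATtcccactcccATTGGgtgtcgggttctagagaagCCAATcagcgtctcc
B2M: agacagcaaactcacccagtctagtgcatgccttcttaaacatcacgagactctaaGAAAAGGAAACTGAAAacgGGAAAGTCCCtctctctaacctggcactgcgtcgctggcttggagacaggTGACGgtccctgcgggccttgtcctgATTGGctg
TAP2: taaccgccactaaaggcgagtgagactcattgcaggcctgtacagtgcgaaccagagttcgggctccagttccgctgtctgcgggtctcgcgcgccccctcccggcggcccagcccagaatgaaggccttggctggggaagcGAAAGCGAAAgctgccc

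The HLA-B and HLA-C windows have a TGACG core followed by a CCAAT box, with the core 106 and 105 bases before the start and the nearest CCAAT box 56 bases before it in both genes. B2M has the same pair of letters, at 75 and 49 bases, and 2 overlapping ISRE matches at 144 and 138 bases. The κB consensus begins 177 bases before the start in HLA-B, with a second match shifted by 1 base, 172 bases before it in HLA-C and 125 bases before it in B2M. It was present in a window of 6 of the 8 genes and in 8.14% of 35116 RefSeq promoters. The exact ISRE letters were present in a window of 5 of the 8 genes (B2M, HLA-F, TAP1, TAP2 and TAPBP) and in 2.4% of all promoters. HLA-B, HLA-C and HLA-G had no exact match, but the pattern allows no mismatch, so an ISRE of other letters would be missed. CCAAT was present in 5 of the 8 genes and 28.0% of all promoters, and TGACG in 4 of the 8 genes and 18.4% of all promoters. A match is a run of letters, not evidence that a factor was bound in these cells.

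HLA-B, the classical heavy chain that presents peptides to CD8+ T cells, had the largest difference of the set. Its row (ENSG00000234745, GRCh38 chromosome 6, 31269491 to 31357179, minus strand) held 5886, 6313 and 5690 counts in the controls and 3886, 3578 and 3970 in knockdown samples. All 3 knockdown samples were below all 3 control samples, and the gap between the groups was wider than either group. The level was 95.7 ± 3.35 CPM (SD, n = 3) in control and 55.2 ± 1.71 CPM (SD, n = 3) in knockdown cells, a log2 fold change of -0.79 (standard error 0.041), or -42.4%. The difference in log2 CPM was therefore about as large as that of the targeted gene itself.

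HLA-C, the other classical heavy chain here and a main ligand of the killer-cell immunoglobulin-like receptors, lies next to HLA-B (ENSG00000204525, chromosome 6, 31268749 to 31272105, minus strand). It had 8754, 9497 and 7924 counts in the controls and 6721, 6765 and 7638 in knockdown samples. The groups did not overlap after scaling, but both were wide, at 140.0 ± 10.2 CPM (SD, n = 3) in control and 101.9 ± 6.73 CPM (SD, n = 3) in knockdown cells. The log2 fold change of CPM was -0.46 (standard error 0.061). In the deposited table the HLA-B row spans 87689 bases and covers 2615 of the 3357 bases of HLA-C on the same strand, and heavy-chain genes are alike in sequence, so counts may have been split between them. The sum of both genes, which does not depend on how reads were divided between them, was 235.7 CPM in control and 157.1 CPM in knockdown cells on average, a log2 ratio of -0.59.

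HLA-E presents leader peptides of other class I heavy chains to the NKG2A receptor of natural killer cells. Its row (ENSG00000204592, chromosome 6, 30489509 to 30494194, plus strand) had 7973, 8521 and 7939 counts in the controls and 7192, 6922 and 7505 in knockdown samples. Relative to its level it had the smallest spread of the heavy chains in both groups, with 130.7 ± 2.88 CPM (SD, n = 3) in control and 104.3 ± 2.55 CPM (SD, n = 3) in knockdown cells and no overlap. The log2 fold change of CPM was -0.33 (standard error 0.036).

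HLA-F and HLA-G are nonclassical heavy chains with restricted expression. HLA-F (ENSG00000204642, chromosome 6, 29722775 to 29729351, plus strand) had 1126, 1097 and 1070 counts in the controls and 800, 901 and 890 in knockdown samples. Every knockdown sample was lower, and the level went from 17.6 ± 0.498 CPM (SD, n = 3) to 12.5 ± 1.03 CPM (SD, n = 3), a log2 fold change of -0.49 with the largest standard error of the set (0.088). HLA-F-AS1, which overlaps HLA-F on the opposite strand, had a mean of 98.7 counts in control and 87.7 in knockdown samples, and whether strand was used in counting is not given in the sources used here. HLA-G, best known from the placenta (ENSG00000204632, chromosome 6, 29826967 to 29831125, plus strand), was at 0 counts in all 6 samples, which at a floor of 3 counts per library shows only that it was not detectable at this depth, and it entered no fit.

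B2M encodes the light chain shared by every class I molecule and is the single gene of the set outside chromosome 6 (ENSG00000166710, chromosome 15, 44711487 to 44718877, plus strand). It had 81282, 90440 and 85301 counts in the controls and 67154, 69306 and 78591 in knockdown samples. Knockdown sample 3 came closest to the controls, and the groups were still apart. The level was 1375 ± 56.1 CPM (SD, n = 3) in control and 1038 ± 82.9 CPM (SD, n = 3) in knockdown cells, with a log2 fold change of -0.41 (standard error 0.054).

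The genes of the transporter subunits lie close together on chromosome 6, with PSMB8 between them, and differed in size of change. TAP1 (ENSG00000168394, 32845209 to 32853978, minus strand) had 4481, 5179 and 4319 counts in the controls and 3918, 3743 and 4139 in knockdown samples. Its level was 74.7 ± 5.92 CPM (SD, n = 3) in control and 56.9 ± 1.91 CPM (SD, n = 3) in knockdown cells, a log2 fold change of -0.39 (standard error 0.057). TAP2 (ENSG00000204267, 32821833 to 32838770, minus strand) had 10002, 10350 and 10169 counts in the controls and 10088, 10120 and 9914 in knockdown samples. The raw counts of TAP2 thus overlap, and the groups part only once the deeper knockdown libraries are scaled, to 163.4 ± 2.08 CPM (SD, n = 3) against 145.5 ± 4.80 CPM (SD, n = 3). The log2 fold change of CPM of TAP2 was -0.17 (standard error 0.036). In the table TAP1 lies wholly within the row of PSMB9 on the opposite strand, which had a mean of 302.7 counts in control and 367.0 in knockdown samples. TAP2 lies wholly within a transcript named AL669918 on the same strand, with means of 70.7 and 103.0 counts, so its reads could be shared with TAP2.

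TAPBP encodes tapasin, which edits the peptides bound by class I molecules (ENSG00000231925, chromosome 6, 33299694 to 33314251, minus strand). It had 7570, 7950 and 7086 counts in the controls and 7306, 7761 and 8285 in knockdown samples. In CPM, knockdown sample 1 lay below all controls and knockdown samples 2 and 3 lay within their range, so the groups overlapped, at 120.9 ± 4.96 CPM (SD, n = 3) in control and 112.8 ± 7.55 CPM (SD, n = 3) in knockdown cells. The log2 fold change of CPM was -0.10 (standard error 0.053), the smallest of the set.

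**Figure D1:**
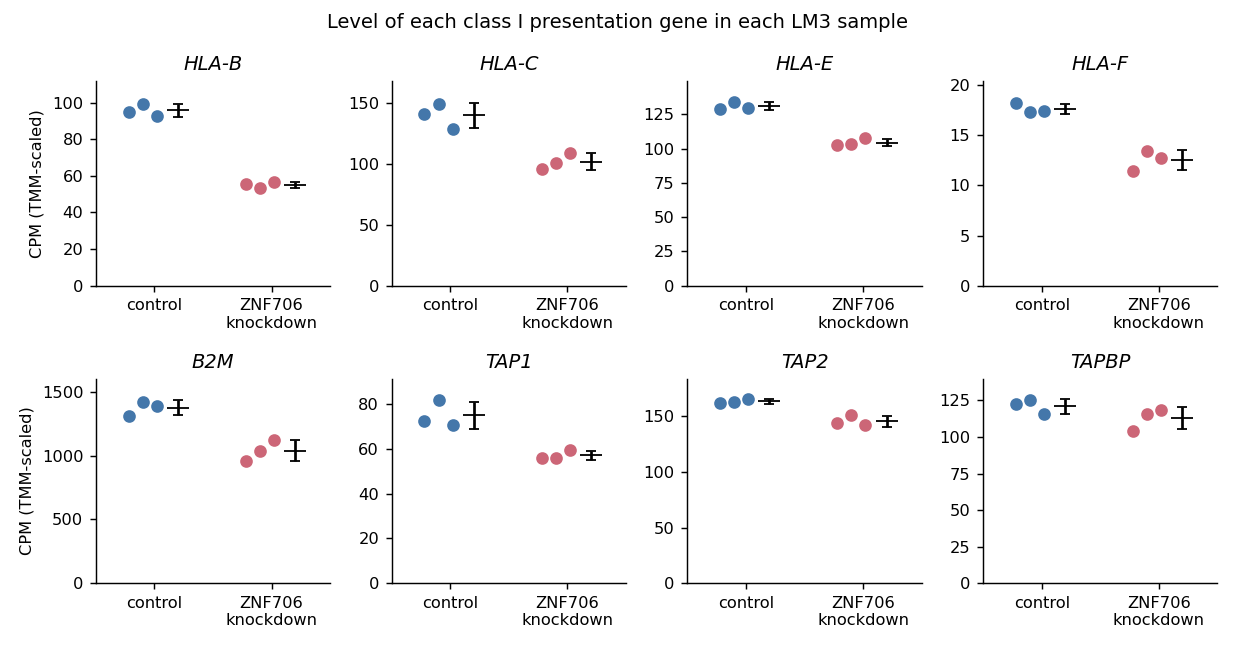
TMM-scaled CPM (vertical axes, starting at 0) of the 8 detected class I presentation genes in each of 3 control samples (blue, numbers 1 to 3 from left to right) and 3 ZNF706 knockdown samples (red), with the mean ± SD in black beside each group. The groups are apart in every panel except TAPBP, and the widest gap relative to the level is that of HLA-B, from 95.7 to 55.2 CPM.

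Across the set, 8 genes had enough counts to be fitted and all 8 had negative log2 fold changes, with a median of -0.40, where the median of all 18390 genes fitted was 0.01. At an adjusted p below 0.05, 7 of the 8 were called lower and 0 higher, where 12.4% of all genes were called lower and 10.4% higher, 22.8% in all. In 7 genes the CPM of every knockdown sample was below that of every control sample, as it was for 19.7% of all genes, and in 39.4% of all genes the groups were apart in either direction. Since the set was chosen from this comparison, these counts describe it and test nothing. Leaving out any sample in turn kept the log2 fold change of HLA-B between -0.82 and -0.77, of B2M between -0.47 and -0.35 and of TAPBP between -0.14 and -0.05. When libraries were scaled by size alone, without TMM, the median of all genes moved up to 0.06, and relative to zero HLA-B was then at -0.74, HLA-E at -0.27 and TAP2 at -0.11. Of all genes called, 45.5% were higher with TMM (1906 higher and 2286 lower) and 64.4% with library size alone (2742 higher and 1518 lower), and limma-trend on log2(FPKM + 0.1) likewise called more genes higher (2279) than lower (1539).

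**Figure D2:**
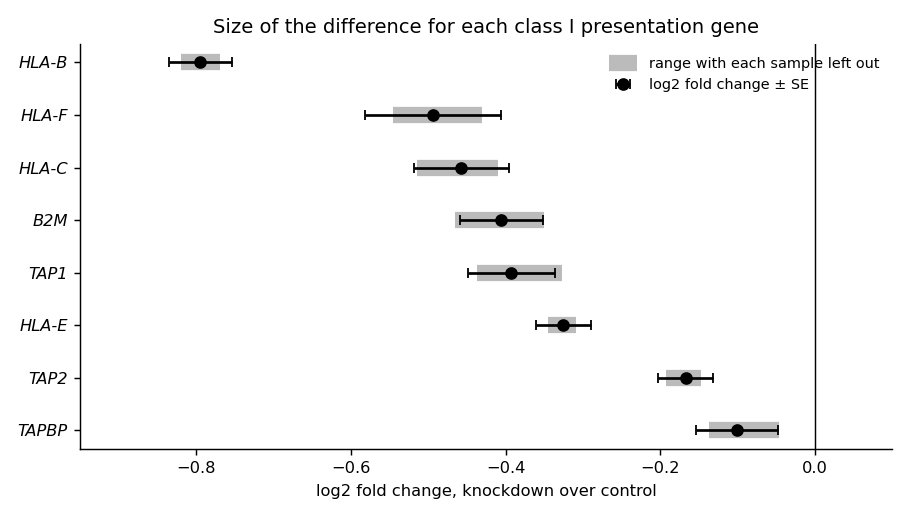
Log2 fold change of CPM, knockdown over control (horizontal axis), for the 8 detected genes in order of size. Points and bars are the edgeR estimate ± SE over 3 samples per group, and grey bands span the 6 estimates with each sample left out. HLA-B stands at -0.79, 6 genes lie between -0.49 and -0.17, and TAPBP is nearest to zero at -0.10.

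FPKM divides by a length of each gene, and how the authors set that length is not given in the sources used here. Ranks, the order of genes and the shares and ratios between genes depend on it. A comparison of the same gene between the groups does not. On this scale the control cells had most B2M, at 195.1 ± 6.98 FPKM (SD, n = 3). This was rank 138 among 27568 genes with a value above 0. HLA-C followed with 48.2 ± 3.79 FPKM, HLA-E with 38.6 ± 0.899 FPKM and HLA-B with 27.0 ± 1.06 FPKM, and these levels did not overlap between the genes in the controls. TAP2 at 22.1 ± 0.0964 FPKM and TAPBP at 20.6 ± 0.984 FPKM came next, again without overlap, and TAP1 at 13.4 ± 1.09 FPKM and HLA-F at 3.51 ± 0.119 FPKM came last. In the knockdown cells the order differed. HLA-B, at 16.19, 15.61 and 16.53 FPKM, was below TAP2 at 20.11, 21.14 and 19.75 FPKM and below TAPBP at 18.37, 20.45 and 20.83 FPKM, whereas in each control sample it was above both. TAP2 and TAPBP overlapped there, and TAPBP was the higher of them in knockdown sample 3.

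The make-up of the heavy-chain transcripts differed as well. The summed FPKM of HLA-B, HLA-C, HLA-E and HLA-F was 118.19, 122.49 and 111.23 in the controls and 83.95, 85.90 and 90.53 in knockdown samples. HLA-B held 22.9%, 22.9% and 23.3% of that sum in the controls and 19.3%, 18.2% and 18.3% in knockdown samples, with no overlap. The share of HLA-E went the other way, from 32.9% ± 0.944 (SD, n = 3) to 36.7% ± 0.611 (SD, n = 3), also with no overlap. HLA-C held 41.5%, 42.0% and 39.6% in the controls and 40.6%, 41.9% and 42.8% in knockdown samples, and the shares of HLA-C and HLA-F overlapped between the groups. B2M per summed heavy chain, a ratio of FPKM values, was 1.67 ± 0.0844 in control and 1.75 ± 0.0722 in knockdown cells (SD, n = 3) and overlapped between the groups. The ratio of TAP1 to TAP2 was 0.5948, 0.6647 and 0.5638 in the controls and 0.5157, 0.4905 and 0.5544 in knockdown samples, and knockdown sample 3 lay just below the lowest control.

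**Figure D3:**
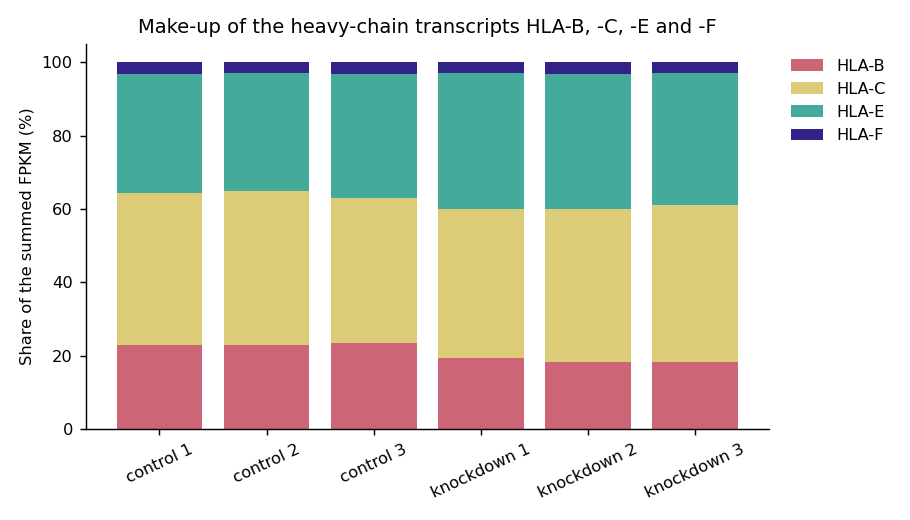
Share (%) of the summed FPKM of HLA-B, HLA-C, HLA-E and HLA-F held by each gene (stacked, vertical axis from 0) in each of the 3 control and 3 knockdown samples (horizontal axis). The HLA-B segment is 22.9% to 23.3% in the controls and 18.2% to 19.3% in knockdown samples, and the HLA-E segment is larger in every knockdown sample.

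The Pearson correlation of log2 CPM of a gene with the mean of the other 7 over the 6 samples was between 0.962 and 0.983 for HLA-B, HLA-C, HLA-E, HLA-F, B2M and TAP1, 0.883 for TAP2 and 0.728 for TAPBP. These values are a description, because the points are 6 samples in 2 groups and the genes were chosen for a difference between the groups, which by itself gives a high correlation. By the same measure, the 5 genes outside the set most like its mean, among 14124 candidates, were ILKAP (0.9977), PRKCSH (0.997), M6PR (0.9969), ALG13 (0.996) and FBXO21 (0.9951). They code for an integrin-linked-kinase-associated phosphatase, a subunit of glucosidase II, a mannose 6-phosphate receptor, a glycosyltransferase subunit and an F-box protein. Their log2 fold changes of CPM were -0.23, -0.18, -0.18, -0.18 and -0.32, smaller than the median of the class I set.

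Other genes of the presentation pathway went both ways. A list of 30 further genes was drawn up for antigen processing and loading, and all were fitted. It also holds genes that do not handle peptides, such as a general chaperone, a vesicle coat gene and ubiquitin ligases. Of the list, 5 were lower and 3 higher at an adjusted p below 0.05 by edgeR's quasi-likelihood test, and the median log2 fold change was -0.02. The 16.7% called lower stands beside 12.4% of all genes, and the 3 higher genes beside 10.4%. In the fit limited to a mean count of at least 50, all genes gave 2351 lower and 2104 higher of 14132, and this list 5 lower and 4 higher. With library size alone as the scale, 4 were lower and 8 higher, and with limma-trend on log2(FPKM + 0.1) 4 were lower and 7 higher, on scales where all genes together shifted to 1518 lower and 2742 higher and to 1539 lower and 2279 higher. In the proteasome, PSMB8, an inducible catalytic subunit of the immunoproteasome, fell from 35.8 ± 1.19 to 27.3 ± 0.381 CPM (SD, n = 3), which is -0.39 on the log2 scale (standard error 0.055, adjusted p = 0.0010). The other inducible subunits were not called, with log2 fold changes of 0.13 for PSMB9 (adjusted p = 0.57) and 0.28 for PSMB10 (adjusted p = 0.16), whose lowest values were 0.0091 and 0.15 with 1 sample left out. Of the constitutive subunits that they replace, PSMB6 rose by 0.33 (adjusted p = 0.0015) and PSMB7 by 0.20 (adjusted p = 0.0041) on the log2 scale, and PSMB5 was at 0.09 (adjusted p = 0.19).

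In the endoplasmic reticulum, the chaperone gene HSPA5 fell from 2521 ± 104 to 2097 ± 58.2 CPM (SD, n = 3), a log2 fold change of -0.27 (adjusted p = 0.00067). SPPL2A, an intramembrane protease, was also called lower, with a log2 fold change of -0.22 (adjusted p = 0.0044). The chaperones that receive class I heavy chains gave smaller values, with -0.13 for PDIA3 (adjusted p = 0.019, above 0.05 in 8 of 14 other settings and up to 0.10 there), -0.08 for CALR (adjusted p = 0.20, but -0.12 with 0.023 without knockdown sample 3) and 0.02 for CANX (adjusted p = 0.71). The trimming peptidases ERAP1, at -0.09 (adjusted p = 0.36), and ERAP2, at -0.13 (adjusted p = 0.77), and the tapasin-related editor TAPBPL, at -0.32 (adjusted p = 0.15), were not called. With 1 sample left out, ERAP1 ranged from -0.16 to -0.06 and ERAP2 from -0.36 to 0.21.

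Among 36 regulators of class I genes, 12 were lower and 2 higher, with a median log2 fold change of -0.13. The 33.3% called lower stands beside 12.4% of all genes, and the 5.56% called higher beside 10.4%. Limited to a mean count of at least 50, the fit called 13 regulators lower and 2 higher, beside 2351 and 2104 of 14132 genes. With library size alone 7 were lower and 3 higher, and with limma-trend on log2(FPKM + 0.1) 8 were lower and 4 higher, where all genes together gave 1518 lower and 2742 higher and 1539 lower and 2279 higher. NLRC5, the class I transactivator, was higher in knockdown cells, with 1947, 2134 and 1677 counts in the controls and 2691, 2383 and 2528 in knockdown samples. The log2 difference was 0.25 (standard error 0.077, adjusted p = 0.041), a call that was lost in 6 of 14 other settings with adjusted p values of up to 0.14. RFX5, the DNA-binding subunit through which NLRC5 reaches the SXY module, rose from 64.5 ± 0.400 to 82.4 ± 1.20 CPM (SD, n = 3), a log2 fold change of 0.35 (adjusted p = 0.00014). NLRC5 and RFX5 were thus on the opposite side of zero from the heavy-chain genes and B2M, whose promoters they are known to act on.

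The lower regulators included signalling genes, DNA-binding genes and repressors, so the list mixes activators of class I genes with genes that repress them. SOCS3, a feedback inhibitor of cytokine signalling, had the largest difference among them, with 94.3 ± 4.22 CPM in control and 66.1 ± 1.25 CPM in knockdown cells (SD, n = 3) and a log2 fold change of -0.51 (adjusted p = 7.1e-05). NFKB2, an NF-κB subunit, fell by 0.32 on the log2 scale (adjusted p = 0.0012). IRF2 was at -0.47 (adjusted p = 0.036), and its call was lost in 7 of 14 other settings with adjusted p values of up to 0.13. Outside the rule for named genes, the NF-Y subunit genes NFYA and NFYB were chosen after their values were seen. They were called lower as well, at -0.25 (adjusted p = 0.0028) and -0.24 (adjusted p = 0.028). The remaining subunit gene NFYC was at 0.07 (adjusted p = 0.45). EZH2, EED and SUZ12, subunits of the polycomb repressive complex that can silence class I genes, were also chosen after their values were seen. They were called lower at -0.15 (adjusted p = 0.013), -0.17 (adjusted p = 0.018) and -0.23 (adjusted p = 0.0028). The other regulators called lower, chosen in the same way, were NFKB1 at -0.23 (adjusted p = 0.015), ATF1 at -0.18 (adjusted p = 0.0065), STAT3 at -0.20 (adjusted p = 0.0021) and IFNAR2 at -0.22 (adjusted p = 0.0058). For the genes chosen after their values were seen, values under other settings are not given. IRF1 at -0.20 (adjusted p = 0.077) and RELA at -0.06 (adjusted p = 0.38, and from -0.09 to -0.03 with 1 sample left out), which carry interferon and NF-κB signals to class I promoters, were not called.

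Interferon-stimulated genes moved in both directions. Of 49 listed genes, 45 were fitted, 11 were lower and 8 higher, which is 24.4% and 17.8% beside 12.4% and 10.4% of all genes, and the median log2 fold change was -0.04. Limited to a mean count of at least 50, the fit also called 11 lower and 8 higher, beside 2351 and 2104 of 14132 genes. The list gave 6 lower and 10 higher with library size alone and 6 lower and 8 higher with limma-trend on log2(FPKM + 0.1), a shift that all genes shared (1518 lower and 2742 higher, and 1539 lower and 2279 higher). The fit without control sample 1 made 9 calls in this list, and so did the fit without knockdown sample 2, beside 19 with all samples. IFIT1, which binds foreign RNA, rose from 49.7 ± 5.09 to 74.3 ± 6.38 CPM (SD, n = 3), a log2 fold change of 0.58 (adjusted p = 0.00089), and USP18, which dampens interferon signalling, rose by 0.60 (adjusted p = 0.0091). GBP1 was at -0.58 (adjusted p = 0.018), MX1 at -0.58 (adjusted p = 0.049) and IFI44L at -0.56 (adjusted p = 0.038, and from -0.67 to -0.36 with 1 sample left out). The calls of these 3 were lost in 4 of 14, 8 of 12 and 7 of 12 other settings, with adjusted p values of up to 0.079, 0.17 and 0.12.

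**Figure D4:**
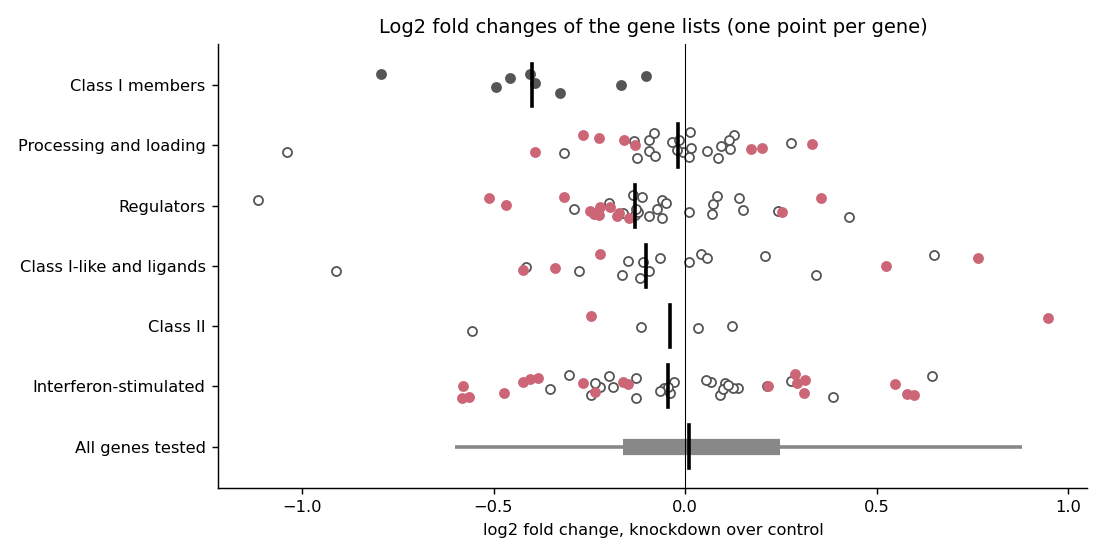
Log2 fold change of CPM (horizontal axis) of each fitted gene in the class I set and in 5 further lists, with black ticks at the medians. Red points had an adjusted p below 0.05 in edgeR's test, open points did not, the class I set is drawn in grey without a test, and the bottom row gives the middle 50% (thick) and 90% (thin) of all 18390 genes. The class I genes all lie left of zero with a median of -0.40, while the other medians lie between -0.13 and -0.02.

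A further list held class I-like molecules and other ligands of lymphocyte receptors. Of its 21 genes in the table, 20 were fitted, 3 were lower and 2 higher. The 15.0% called lower stands beside 12.4% of all genes, and the 2 of 20 called higher beside 10.4%. PROCR, a class I-like receptor for protein C, rose from 9.30 ± 0.343 to 15.8 ± 1.20 CPM (SD, n = 3), a log2 fold change of 0.76 (adjusted p = 0.00048). HFE, a class I-like regulator of iron uptake that also pairs with B2M, rose by 0.53 (adjusted p = 0.0051). PVR, a ligand of DNAM-1 and TIGIT, fell by 0.34 (adjusted p = 0.00017), and CD276, a B7 family molecule, fell by 0.22 (adjusted p = 0.0010). NCR3LG1, the ligand of NKp30, was at -0.42 (adjusted p = 0.040, above 0.05 in 8 of 14 other settings and up to 0.13 there). MICA at 0.04 (adjusted p = 0.68) and MICB at 0.01 (adjusted p = 0.96), stress ligands of NKG2D, and CD274, which codes for PD-L1, at -0.41 (adjusted p = 0.40, and from -0.61 to -0.14 with 1 sample left out), were not called.

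Class II chains were nearly silent. Of 15 listed class II genes, 11 were in the table, 6 were fitted, and 1 was called in each direction (16.7% each, beside 12.4% of all genes called lower and 10.4% called higher). HLA-DRB5, HLA-DPA1, HLA-DPB1 and HLA-DQB1, named after their values were seen, had at most 6 counts in any sample. CIITA, the class II transactivator, had 103, 166 and 143 counts in the controls and 242, 307 and 330 in knockdown samples, or 0.95 as a log2 fold change (adjusted p = 0.0096). CD74, the invariant chain, stayed at 17, 20 and 9 counts in the controls and 19, 19 and 14 in knockdown samples. IFI30, a lysosomal thiol reductase and the most abundant gene of the list at 70.2 FPKM, fell by 0.24 on the log2 scale (adjusted p = 0.0019).

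To see whether the neighbours of the class I genes moved with them, all other genes between HLA-F and TAPBP on chromosome 6 (29722775 to 33314251) were taken. Of 230 such rows, 147 were fitted and 35 (23.8%) were called, 19 higher and 16 lower, beside 22.8% of all genes, and the median log2 fold change was 0.04. Among called genes whose mean count reached 50, the lowest were the complement genes C4A, at -0.90 (adjusted p = 6.4e-05), and C4B, at -0.70 (adjusted p = 0.0034), which are near-identical copies and may share reads. The highest of them were the noncoding transcripts AL662797 at 1.78 (ENSG00000272540, adjusted p = 0.013), HCG27 at 1.07 (adjusted p = 0.0027) and AL662884 at 1.02 (ENSG00000285085, adjusted p = 0.026). The calls of AL662797 and AL662884 were lost in 3 and 4 of 14 other settings. The class I pseudogene HLA-H, chosen after its value was seen, was called lower at -0.52 (adjusted p = 0.0048) and is similar in sequence to the heavy-chain genes.

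**Figure D5:**
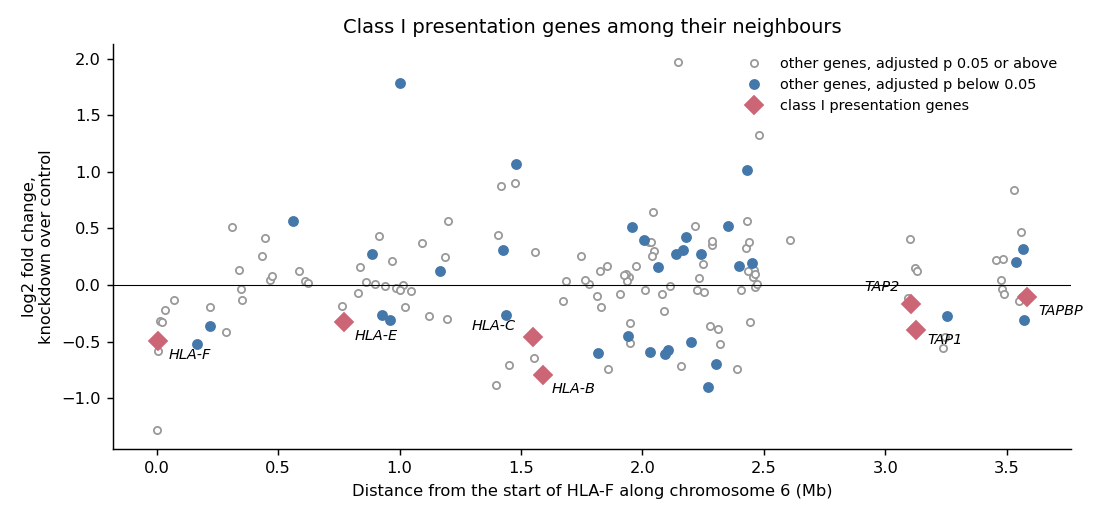
Log2 fold change of CPM (vertical axis) against the distance in Mb from the start of HLA-F along chromosome 6 (horizontal axis). Red diamonds are the 7 detected class I presentation genes of the region, filled blue circles are the other genes with an adjusted p below 0.05 in edgeR's test and open circles the remaining ones. The diamonds lie between -0.79 and -0.10, while the other genes spread on both sides of zero with a median of 0.04.

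Levels of other cell types' markers are given beside these results. The summed FPKM of the immune list was 11.10, 11.14 and 11.78 in the controls and 17.26, 18.87 and 17.35 in knockdown samples, nearly all of it from CD68, which rose by 0.64 on the log2 scale (adjusted p = 0.00011). The summed FPKM of the stromal and endothelial list was 11.20, 9.81 and 10.39 in the controls and 11.28, 11.66 and 11.30 in knockdown samples, with COL1A1 as its most abundant gene. Of its 7 fitted genes, 3 were called (42.9%, beside 22.8% of all genes), with COL1A1 at 0.20 and PDGFRB at 0.68 higher and CDH5 at -0.70 lower. The summed FPKM of the hepatocyte list was 456.39, 467.73 and 490.23 in the controls and 454.54, 469.85 and 471.20 in knockdown samples, with KRT18 and KRT8 as its main part. Of its 14 fitted genes, 13 had negative log2 fold changes, the median was -0.78, and 3 were called lower (21.4%, beside 12.4% of all genes) and 0 higher. The called genes code for secreted liver proteins, namely APOH at -2.32 (adjusted p = 0.017), SERPINA1 at -1.47 (adjusted p = 0.0034) and APOB at -0.98 (adjusted p = 0.021), all at low counts of at most 336 in any sample. The part of these differences in the class I values was not tested.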

How the data were processed

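RNA-seq of LM3 cells was analysed in 3 vector control and 3 ZNF706 knockdown samples. Per the submitters' processing notes, reads were trimmed with cutadapt 1.9, checked with FastQC and placed on GRCh38, and the authors mapped them with HISAT2. The authors deposited a table of raw counts per gene without normalization, and beside them FPKM values, which they had scaled by the length of a gene and the size of a library. The counting program, its use of strand and the annotation release are not given in the sources used here. The 12 columns used each carried a sample's title, and 0 other columns of values per sample were found.

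In edgeR 4.0.16 (R 4.3.3), low genes were removed by filterByExpr, libraries were scaled by TMM, and glmQLFit and glmQLFTest compared the groups with no further term. P-values were adjusted by the Benjamini-Hochberg method over 18390 genes. A standard error is the size of the log2 fold change over the root of its F value. The fit was tested on simulated data. An exact permutation test of 1 gene with 3 samples against 3 cannot give a two-sided p below 0.1. A count of 0 allows up to 3 counts per library, which covers counting error only.

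The 9 class I genes and the other lists were chosen with earlier results of these data known. The genes named are ZNF706, the 9 genes, up to 5 genes of each list and of the region with the largest absolute log2 fold change among those with an adjusted p below 0.05 and a mean count of at least 50, a fixed group of regulators, loading factors and ligands, and the 5 genes with the highest correlation. The result of 1 further gene under this rule is not reported here. Marker genes and genes that overlap a class I gene are named beside these. Promoters were taken from RefSeq, and the printed stretches end before the first exon of the gene in GENCODE release 29. Of the 32092 genes that the table shares with that release, 99.88% overlapped their GRCh38 position.

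Alternatives were DESeq2 1.42.0, its size factors in edgeR, library size alone, no filter, a minimum mean count of 50, a replicate block, each sample left out in turn, and limma-trend of limma 3.58.1 on log2(FPKM + 0.1) and log2(FPKM + 1) where the mean FPKM reached 1.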

Additional observations from a re-analysis of the deposited data

How the results depend on the processing

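The median log2 fold change of the class I genes stayed below zero under all 14 alternatives, between -0.44 and -0.33, as did that of each of the 8 fitted genes. The number of genes called over the whole table, 4192, ranged from 2648 to 3424 with 1 sample left out, and was lowest without knockdown sample 2. The 2 class II calls became 1 under limma-trend on log2(FPKM + 0.1) and 1 on log2(FPKM + 1). The 19 calls among interferon-stimulated genes became 8 without a filter and between 9 and 15 with 1 sample left out, with 9 calls without control sample 1 or knockdown sample 2 and 12 without knockdown sample 3. Over the same left-out samples the log2 fold change changed sign for ERAP2 (from -0.36 to 0.21), MICA (from -0.0011 to 0.0754) and MICB (from -0.10 to 0.12), none of them called. The causes were not tested.

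Samples with the same replicate number showed little shared deviation (correlations of 0.0692, -0.0387 and 0.0169 over 14132 genes), and not every sample correlated best with its own number. The labels do not say whether the numbers pair samples. With deviations from means of 3 samples, these values cannot settle it. With the replicate number as a block, 4361 genes were called and the median of the class I genes was -0.40. The similarity of heavy-chain genes and the alleles of LM3, which may differ from the reference, limit how reads were assigned, and this was not tested.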
